A study of Homo sapiens with 8 samples.

Results

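The transcripts described here encode the subunits of the transcription factor NF-kappaB (NFKB1, NFKB2, REL, RELA and RELB) and proteins that hold it in check (NFKBIA, NFKBIB, NFKBIE, BCL3 and TNFAIP3), measured in a Hodgkin lymphoma cell line that expressed a sponge for miR-155 or an empty vector. All probes whose gene symbol is one of these 10 genes were taken, which gave 10 probes for 9 genes out of 41000 probes on the array. There were 4 probes for 4 subunit genes and 6 probes for 5 inhibitor genes, with 2 probes for TNFAIP3. No probe was matched to RELA, which was not analysed here. The cells were KM-H2, transduced with an empty pMSCV-PIG vector (EV) or with the same type of vector that expresses a sponge for miR-155 (miR-155-sp), meaning a transcript full of sites for this miRNA, and GFP+ cells were sorted in both cases. Measured from each population were total RNA (T) and RNA bound to Argonaute 2 (Ago2-IP), the protein that holds miRNAs and the mRNAs paired with them. Each of these 4 RNAs was labelled once with Cy3 and once with Cy5. The labellings are technical, so that each group is 1 sample, no test was possible and no difference is backed by replicates. In place of an error, the text gives both labellings of a signal and both dye orientations of a ratio.

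NF-kappaB is a dimer of Rel proteins. NFKB1 and NFKB2 are made as long precursors that are processed into the DNA-binding subunits p50 and p52, whereas RELA, RELB and REL carry the domain that activates transcription. In resting cells the dimers are kept inactive by inhibitors of the IkB family, of which NFKBIA (IkB alpha), NFKBIB (IkB beta) and NFKBIE (IkB epsilon) retain them in the cytoplasm until a kinase complex marks the inhibitor for degradation. BCL3 is an IkB family protein of the nucleus that binds p50 or p52 dimers and can also act as a co-activator. TNFAIP3 (A20) is a ubiquitin-editing enzyme that shuts down signalling upstream of the kinases. Constitutive NF-kappaB activity is a hallmark of the tumor cells of Hodgkin lymphoma, and several of the inhibitors are themselves induced by NF-kappaB.

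The miRNA that the sponge binds is shown first, with the seed (bases 2 to 8, the stretch that pairs with a target) in capitals. It is read from RefSeq, assembly GRCh38.p14, at chr21:25573983-25574006 on the plus strand.
hsa-miR-155-5p: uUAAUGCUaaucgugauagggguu
The second set shows the kappaB-type element in the promoters of the genes whose RNA levels are compared, since control of these genes by NF-kappaB itself is part of the pathway. The motif GGGANTTTCC was searched on both strands in the RefSeq promoters of the same assembly, from 250 bases before to 50 bases after each start, and was found for 6 of the 8 listed genes in that table (not for BCL3 and RELA, and RELB and NFKBIE were not in the table). Of all 27305 genes with a promoter there, 0.678% held it, and 7.83% held the looser GGGNNNTTCC (0.558% and 6.52% of all 35116 promoters), which overlaps it and was found in the same 6 genes. Counted by promoter, 6 of the 13 promoters of these genes held GGGANTTTCC and 7 held GGGNNNTTCC. Both spellings were chosen after others had been tried. Windows of 30 bases are given 5′ to 3′ on the strand of the gene, with the match in capitals, and for REL, TNFAIP3 and NFKBIA the match lies on the opposite strand.
NFKB1 (chr4:102501300-102501329): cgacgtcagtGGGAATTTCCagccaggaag
NFKB2 (chr10:102395674-102395703): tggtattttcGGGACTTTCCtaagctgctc
REL (chr2:60881518-60881547): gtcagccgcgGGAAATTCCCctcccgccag
NFKBIA (chr14:35404811-35404840): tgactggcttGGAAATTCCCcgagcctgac
NFKBIB (chr19:38899931-38899960): gggcgtggtgGGGAATTTCCcgcagggcgg
TNFAIP3 (chr6:137867182-137867211): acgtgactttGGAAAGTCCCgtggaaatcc
These matches are descriptions of the letters only, and no binding was measured.

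The 8 channels came from 4 arrays on 1 slide. Between 58.9% and 61.9% of the spots were well above background in the Cy3 channels, against 38.8% to 43.4% in the Cy5 channels. In total 17912 probes passed the background flag in 4 or more channels and differed by no more than 2-fold between the labellings of every sample, and these probes were retained. All 10 probes of NF-kappaB subunits and inhibitors were among them, 9 were well above background in all 8 channels, and the TNFAIP3 probe A_24_P166527 was so in 7, the exception being the Cy5 labelling of miR-155-sp total RNA. All 7 Hodgkin marker genes looked at (TNFRSF8, CCL17, FSCN1, IRF4, MIR155HG, LGALS1 and GATA3) were well above background in all 8 channels. Of the B-cell markers, CD79A was also well above background throughout, while CD22, CD79B and PAX5 were not well above background in any channel. No T-cell or stromal marker gene and 2 of 4 myeloid genes (CSF1R and ITGAM) passed that flag on every channel. The T-cell gene CD2 passed it in 6 channels. Its mean log2 signal was 8.66 in EV and 8.67 in miR-155-sp total RNA, against 6.36 and 6.93 in Ago2-IP RNA. The myeloid gene CD14 also passed it in 6 channels.

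Which of these transcripts sit on Ago2 was the question of the first comparison, and an IP/T ratio of 2 or more was read as enriched. In EV cells 4 of the 10 probes were enriched, against 14.8% of all retained probes. They were the probes of 3 inhibitor genes, namely BCL3 (IP/T 11.5), TNFAIP3 (5.76 and 5.42) and NFKBIA (2.21). None of the 4 subunit probes reached 2, the highest being REL with an IP/T of 1.57. The median log2 IP/T was 1.79 for the 6 inhibitor probes and 0.025 for the 4 subunit probes, against -0.24 for all retained probes. TNFAIP3 counts with 2 of these 6 probes, which spread from -0.24 to 3.52, and RELA is missing from the subunits. In miR-155-sp cells the same 4 probes were enriched, against 15.6% of all retained probes. The medians there were 1.65 for inhibitors, -0.0054 for subunits and -0.26 for all. With either normexp background correction 3 of these probes were enriched in miR-155-sp cells. With normexp, loess and Aquantile the TNFAIP3 probe A_24_P166527 was below 2 in EV cells as well. Of all probes retained under the normexp settings, 5.99% (loess and Aquantile) and 6.64% (quantile) were enriched in EV cells. No probe of these genes had an IP/T of 0.5 or less, which 12.9% (EV) and 14.1% (miR-155-sp) of all retained probes had. The ratio is scaled to the whole set of probes, so the absolute share of a transcript that is bound stays unknown, and no IP with a control antibody was analysed here.

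**Figure D1:**
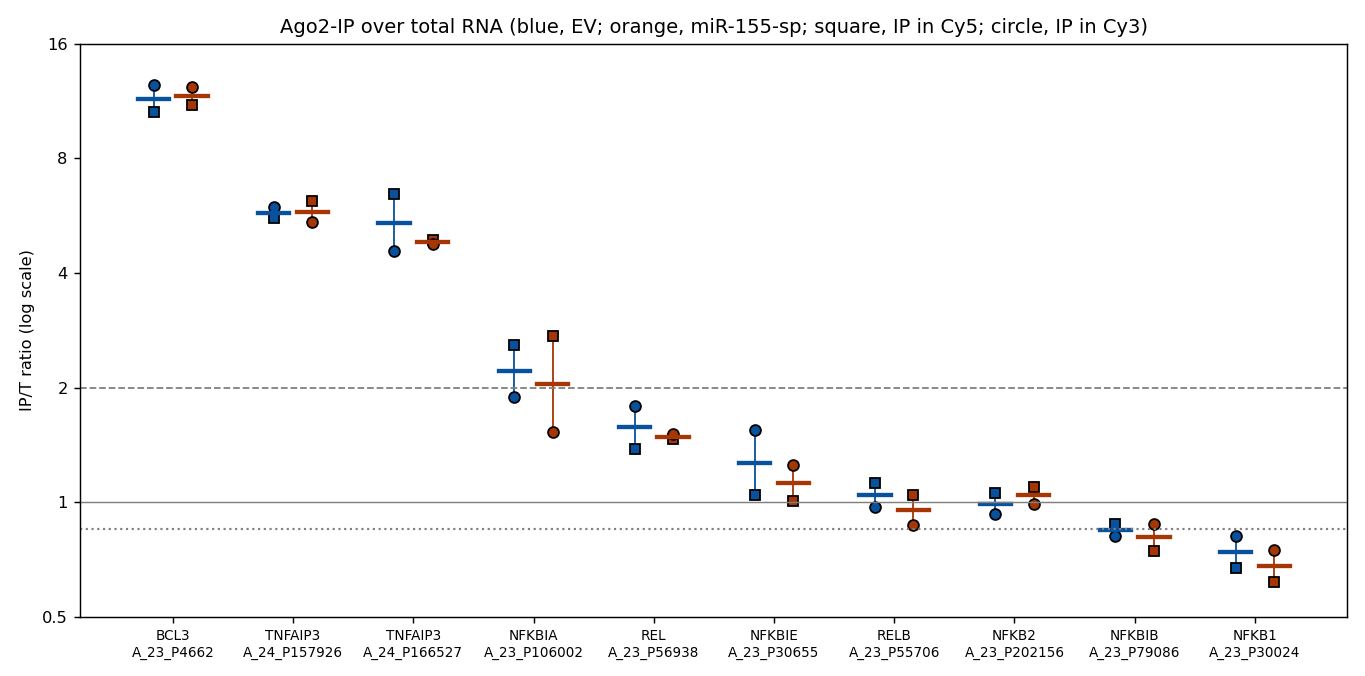
IP/T ratio (log scale) of each probe in EV cells (blue) and miR-155-sp cells (orange), ordered by the value in EV cells. Squares are the orientation with IP in Cy5, circles the one with IP in Cy3 and thick lines their mean. The dashed line marks an IP/T of 2 and the dotted line the median of all retained probes in EV cells. BCL3 and both TNFAIP3 probes lie above 4 in every orientation, NFKBIA straddles 2, and the other 6 probes lie below 2.

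BCL3, the nuclear IkB protein, had the highest IP/T of these genes. Its normalized log2 signal in EV cells was 13.41 (Cy3) and 13.39 (Cy5) in total RNA and 17.03 (Cy3) and 16.82 (Cy5) in Ago2-IP RNA. In miR-155-sp cells it was 13.35 and 13.24 in total RNA and 16.87 and 16.82 in Ago2-IP RNA. Both labellings of both IP fractions were thus more than 3 log2 units above both total fractions, without overlap. The log2 IP/T in EV cells was 3.40 (IP labelled with Cy5) and 3.64 (IP labelled with Cy3), and the sponge cells gave 3.47 and 3.62, or a mean IP/T of 11.7. The value in EV cells was above that of 98.7% of all retained probes. Across the 14 settings run on single probes, the one reported included, the log2 IP/T of BCL3 in EV cells stayed between 3.40 and 3.64.

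TNFAIP3, the ubiquitin-editing inhibitor, was measured with 2 probes that gave a similar enrichment. For probe A_24_P157926 the log2 signal in EV cells was 8.98 (Cy3) and 9.15 (Cy5) in total RNA and 11.72 and 11.46 in Ago2-IP RNA. In miR-155-sp cells it was 8.69 and 8.66 in total RNA and 11.11 and 11.31 in Ago2-IP RNA. The IP fractions did not overlap with the total fractions, and EV cells gave an IP/T of 5.56 (IP in Cy5) and 5.96 (IP in Cy3), against 6.18 and 5.45 with the sponge. Probe A_24_P166527 was nearer to background, with signals of 6.32 (Cy3) and 6.84 (Cy5) in EV total RNA, 9.03 and 9.01 in EV Ago2-IP RNA, 5.93 and 6.53 in miR-155-sp total RNA and 8.79 and 8.23 in miR-155-sp Ago2-IP RNA. Its fractions did not overlap either, with an IP/T of 6.44 and 4.57 in EV cells against 4.89 and 4.77 with the sponge. Its raw signal was as low as 1.19 times the local background, and that of A_24_P157926 as low as 1.90 times. With normexp background correction, loess and Aquantile normalization its log2 IP/T was 0.90 (EV) and 0.58 (miR-155-sp), which is below 2-fold, whereas that of A_24_P157926 was 1.88 and 1.84. Under that setting the call for TNFAIP3 rests on A_24_P157926 alone.

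NFKBIA, the classical cytoplasmic inhibitor, was near the limit of 2. The log2 signal was 13.94 (Cy3) and 14.07 (Cy5) in EV total RNA, 14.99 and 15.31 in EV Ago2-IP RNA, 13.94 and 14.29 in miR-155-sp total RNA and 14.91 and 15.39 in miR-155-sp Ago2-IP RNA. Both IP fractions lay above both total fractions without overlap. The size of the gap differed between dye orientations, since EV cells gave an IP/T of 2.59 where the IP was in Cy5 and 1.89 where it was in Cy3, against 2.73 and 1.53 with the sponge. NFKBIA was thus enriched in 1 of the 2 orientations in either cell population.

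NFKBIE and NFKBIB, the other cytoplasmic inhibitors, were not enriched. NFKBIE had log2 signals of 12.47 (Cy3) and 11.99 (Cy5) in EV total RNA and 12.62 and 12.53 in EV Ago2-IP RNA. The Cy3 labelling of its EV total RNA was close to the IP values and the Cy5 labelling was lower, and the IP/T had a mean of 1.27, from 1.04 (IP in Cy5) to 1.54 (IP in Cy3). With the sponge it had 12.60 and 12.42 in total RNA and 12.74 and 12.61 in Ago2-IP RNA, an IP/T of 1.12 (1.01 and 1.25), so that the fractions were nearly level in both cell populations. NFKBIB had 9.46 and 9.37 in EV total RNA and 9.07 and 9.27 in EV Ago2-IP RNA, an IP/T of 0.846 (0.878 and 0.814). This is close to the median of all retained probes, as 49.8% of them were below it. With the sponge its signals were 9.55 and 9.41 against 9.22 and 9.12, an IP/T of 0.807 (0.744 and 0.876). The raw signal of NFKBIB was as low as 1.71 times the local background.

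Among the subunits REL, the activating subunit most characteristic of lymphoid cells, had the highest IP/T. Its log2 signal was 8.97 (Cy3) and 8.64 (Cy5) in EV total RNA, 9.48 and 9.44 in EV Ago2-IP RNA, 8.89 and 9.01 in miR-155-sp total RNA and 9.60 and 9.44 in miR-155-sp Ago2-IP RNA. Both IP fractions were above both total fractions, by less than 2-fold in each orientation (IP/T 1.38 and 1.79 for EV, 1.47 and 1.51 for miR-155-sp). The raw Cy5 signals of REL were 2.07 to 2.51 times the local background. With normexp and quantile normalization its log2 IP/T in EV cells was 0.28, against 0.65 as reported here. NFKB1, the precursor of p50, was on the other side. It had 11.23 and 11.07 in EV total RNA, 10.77 and 10.65 in EV Ago2-IP RNA, 11.30 and 11.15 in miR-155-sp total RNA and 10.73 and 10.60 in miR-155-sp Ago2-IP RNA, so that both IP fractions were below both total fractions. Its IP/T of 0.740 without the sponge (0.670 and 0.816) and 0.679 with it (0.617 and 0.747) was the lowest of the 10 probes.

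The probes of NFKB1 and NFKB2 were spotted 10 times on each array, which gives their precision within an array. The SD of log2 signal over the spots used ranged from 0.055 to 0.34 between channels for NFKB1 and from 0.037 to 0.22 for NFKB2. For NFKB2, the precursor of p52, and RELB, its usual partner in the non-canonical pathway, total and IP signals overlapped. NFKB2 had 9.81 (Cy3) and 9.81 (Cy5) in EV total RNA and 9.70 and 9.89 in EV Ago2-IP RNA, with an IP/T of 0.990 (1.06 and 0.928). RELB had 15.04 and 15.16 against 15.12 and 15.20, with an IP/T of 1.05 (1.12 and 0.973). With the sponge NFKB2 had 9.73 and 9.91 in total and 9.90 and 9.86 in Ago2-IP RNA (IP/T 1.04), and RELB had 15.04 and 15.22 against 15.02 and 15.11 (IP/T 0.954). In neither population did the mean difference between fractions exceed the spread of the labellings for these transcripts.

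Ordered by IP/T in EV cells, BCL3 was followed by TNFAIP3, NFKBIA, REL, NFKBIE, RELB, NFKB2, NFKBIB and NFKB1. BCL3 was separated from TNFAIP3, TNFAIP3 from NFKBIA, NFKBIA from REL and NFKB2 from NFKBIB, as their ranges over both orientations did not overlap. The ranges of the other neighbours in this order overlapped. Within each orientation REL was still above NFKBIE and RELB above NFKB2. NFKBIE and RELB, and NFKBIB and NFKB1, changed order between orientations. With the sponge the gap between NFKBIA and REL was narrow, as the lower orientation of NFKBIA (1.53) was next to the upper one of REL (1.51).

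**Figure D2:**
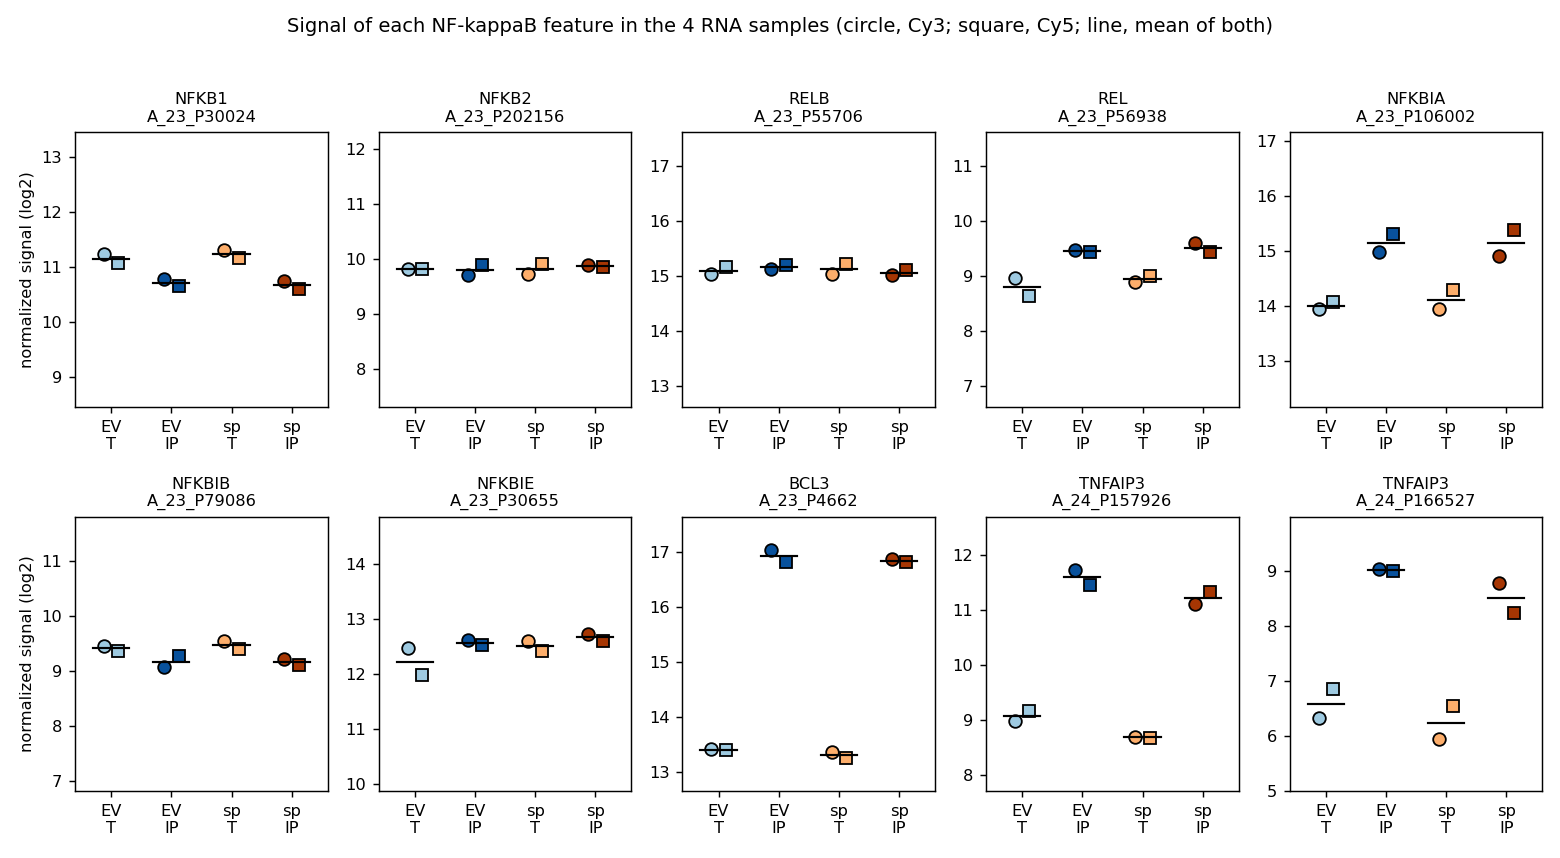
Normalized signal (log2) of each probe in EV total (EV T), EV Ago2-IP (EV IP), miR-155-sp total (sp T) and miR-155-sp Ago2-IP (sp IP) RNA. Circles are Cy3 labellings, squares Cy5 labellings and lines their mean, and each panel spans 5 log2 units. Total and IP fractions are far apart for BCL3 and both TNFAIP3 probes, and no mean differs by 2-fold between EV and miR-155-sp cells.

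The second comparison asks which transcripts have less or more Ago2 binding in cells that express the sponge. How much miR-155 the sponge captured was not measured on these arrays. None of the 10 probes changed its IP/T by 2-fold, which 0.698% of all retained probes did downwards and 0.748% upwards. On the log2 scale the change of this ratio (value with the sponge minus value in EV cells) ranged from -0.18 (NFKBIE) to 0.072 (NFKB2), with a median of -0.098 against -0.0025 for all retained probes. It was negative in both dye orientations for 3 probes, NFKB1, RELB and NFKBIE, against 30.3% of all retained probes, and positive in both for NFKB2 alone, against 30.6%. The shares are close to or below those of all probes. For NFKB1 the change was -0.12 (IP in Cy5) and -0.13 (Cy3), and for RELB it was -0.10 and -0.16. For NFKBIE it was -0.052 and -0.31. The probes of enriched inhibitors did not move in 1 direction. BCL3 gave 0.063 and -0.018, TNFAIP3 gave 0.15 and -0.13 with A_24_P157926 and -0.40 and 0.061 with A_24_P166527, and NFKBIA gave 0.073 and -0.31.

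The third comparison concerns the amount of each transcript in total RNA with and without the sponge. None of the 10 probes changed by 2-fold, which 0.274% of all retained probes did downwards and 0.0893% upwards. The median absolute log2 change was 0.11 for these probes and 0.14 for all retained probes. The probes that were lower in miR-155-sp cells in both labellings were those of BCL3 and TNFAIP3, 3 of 10 against 32.9% of all retained probes. Those that were higher in both were NFKB1, RELB, NFKBIA, NFKBIB and NFKBIE, 5 of 10 against 32.4%. In RNA from bulk cells, fewer cells that express a gene and less of its RNA per cell cannot be told apart.

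TNFAIP3 had the largest negative difference. The log2 change of its total RNA was -0.29 (Cy3) and -0.49 (Cy5) with probe A_24_P157926 and -0.38 and -0.31 with A_24_P166527, or 0.763 and 0.787 times the level of EV cells. The labellings of A_24_P157926 did not overlap between the cell populations, while those of A_24_P166527 did, as its Cy5 signal in miR-155-sp cells (6.53, not well above background) was above its Cy3 signal in EV cells (6.32). With normexp, loess and Aquantile the change of A_24_P166527 was 0.00 and that of A_24_P157926 was -0.18. NFKBIE had the largest positive difference, 0.13 (Cy3) and 0.43 (Cy5), or 1.21 times the level of EV cells. Its miR-155-sp signals of 12.60 and 12.42 lay on either side of the EV Cy3 signal of 12.47, so that the groups overlapped. BCL3 differed by -0.11 on the log2 scale (-0.063 in Cy3 and -0.15 in Cy5), and NFKBIA, NFKB1, NFKBIB, RELB and NFKB2 differed by between 0.0068 and 0.11 in the mean. REL had opposite signs in the labellings, -0.083 in Cy3 and 0.36 in Cy5.

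**Figure D3:**
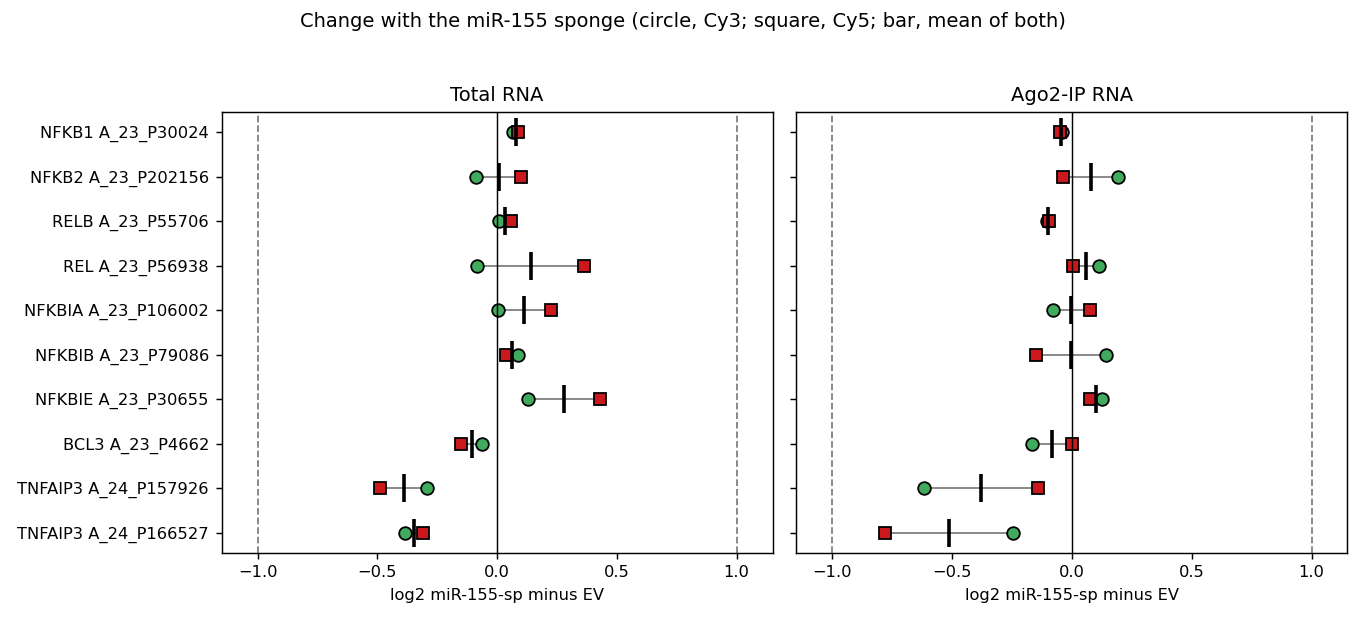
Log2 difference, miR-155-sp minus EV, of each probe in total RNA (left) and Ago2-IP RNA (right). Circles are Cy3 labellings, squares Cy5 labellings and bars their mean, and dashed lines mark 2-fold. Both TNFAIP3 probes lie left of 0 in every labelling of both fractions, between -0.14 and -0.78, and no mean reaches 2-fold.

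In Ago2-IP RNA no probe of these genes changed by 2-fold either, which 0.0837% of all retained probes did downwards and 0.151% upwards. The signal was lower in miR-155-sp cells in both labellings for 4 of 10 probes (NFKB1, RELB and both of TNFAIP3), against 32.6% of all retained probes, and higher in both for REL and NFKBIE, against 30.5%. TNFAIP3 changed by -0.62 (Cy3) and -0.14 (Cy5) with A_24_P157926 and by -0.25 and -0.78 with A_24_P166527. Its IP signal thus shifted in the same direction as its total signal. The mean shift was -0.38 against -0.39 for A_24_P157926 and -0.51 against -0.35 for A_24_P166527. The IP/T was 5.80 with the sponge against 5.76 in EV cells for A_24_P157926, and 4.83 against 5.42 for A_24_P166527. BCL3 changed by -0.17 in Cy3 and 0.00 in Cy5, where it held the same rank in both channels and so received the same normalized value. All other changes in Ago2-IP RNA were between -0.15 and 0.19 in single labellings.

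The other genes of the pathway were described by lists ordered by role. The kinases that act on the inhibitors, together with their activators, were covered by 11 retained of 13 probes for 10 genes. Of these 2 (18.2%, against 14.8% of all retained probes) were enriched in EV Ago2-IP, those of TAB2 (IP/T 6.73, and 6.36 in miR-155-sp cells), an adaptor of the kinase TAK1, and MAP3K14 (3.24 and 3.49), the NF-kappaB inducing kinase of the non-canonical pathway. The lowest of this list were TAB1 (0.578 and 0.449) and 1 of 2 retained probes of IKBKB (A_23_P216188, 0.897), the IkB kinase beta. The median log2 IP/T in EV cells was 0.59. No probe of this list was at 0.5 or less in EV cells, 4 were enriched in miR-155-sp cells (15.6% of all retained probes were), and no IP/T changed by 2-fold with the sponge. In total RNA 1 probe of TAB3 (A_32_P162150, named after its values were seen) was 2-fold lower in the mean, as 0.274% of all retained probes were, with a log2 difference of -1.23 (-0.89 in Cy3 and -1.58 in Cy5). The other TAB3 probe had opposite signs in the labellings, -0.86 in Cy3 and 0.17 in Cy5.

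The receptors and adaptors that feed into these kinases were covered by 20 retained of 29 probes for 23 genes, with a median log2 IP/T of 0.15. BIRC2, a ubiquitin ligase of the TNF receptor complex, was the only one enriched (1 of 20, against 14.8% of all retained probes), with an IP/T of 2.23 (1.62 and 3.06). BCL10, the adaptor of the CARD and MALT1 complex, followed with 1.73 (1.34 and 2.23). The lowest were TRAF1 (A_23_P216970, 0.542) and TRAF2 (0.560), adaptors of CD30 and CD40, and none was at 0.5 or less. The other TRAF1 probe, A_24_P89891, had 0.641. None changed its IP/T or its total RNA by 2-fold with the sponge.

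Other inhibitors of the pathway had a median log2 IP/T of 0.00037 over 16 retained of 23 probes for 15 genes. RNF11 (7.28, and 5.79 in miR-155-sp cells) and TNIP2 (3.31 and 3.91), which act together with A20, and ZC3H12A (2.56), an RNase that degrades inflammatory mRNAs, were enriched, 3 of 16 probes (18.8%) against 14.8% of all retained probes. PDLIM2 (0.351) and COMMD1 (A_32_P131562, 0.559), both of which promote the degradation of RELA, were the lowest, and PDLIM2 alone was at 0.5 or less. The other COMMD1 probe, A_23_P389525, had 0.653. OTUD7B, a deubiquitinase, was the only gene of all lists with a 2-fold change of IP/T, and only in 1 of its 2 probes (0.748% of all retained probes were 2-fold higher). Its IP/T was 0.858 (EV) and 2.28 (miR-155-sp) with A_23_P138157, and 0.627 and 0.774 with A_24_P205181.

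Genes induced by NF-kappaB were covered by 30 retained of 36 probes, of which 12 probes of 10 genes (40%) were enriched in EV cells, against 14.8% of all retained probes, with a median log2 IP/T of 0.68 against -0.24 for all. BIRC3, an inhibitor of apoptosis, had an IP/T of 25.2 (25.4 and 25.0) in EV cells. The chemokine receptor CCR7 followed with 3.91, and 4.16 with the sponge. The others enriched were CCND2, CD83, CXCL10, IL6, IRF1, IRF4, JUNB and TNF. CCND2, IRF4 and JUNB each also had a retained probe below 2 in EV cells. These were A_23_P139881 (1.68), A_23_P156505 (1.59) and A_24_P241815 (1.96). The lowest were CCL17 (0.398 and 0.597), the chemokine that attracts T cells in Hodgkin lymphoma, and STAT5A (A_23_P207367, 0.428 and 0.397). The other retained STAT5A probe, A_24_P173088, had 0.754 and 0.554. In EV cells 3 probes of the list, the last that of CD44 (0.460), were at 0.5 or less. No target gene changed by 2-fold with the sponge in IP/T or total RNA. The genes of this list were chosen as known NF-kappaB targets, but with earlier results of these data known. The share of 40% is thus not independent of these data.

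**Figure D4:**
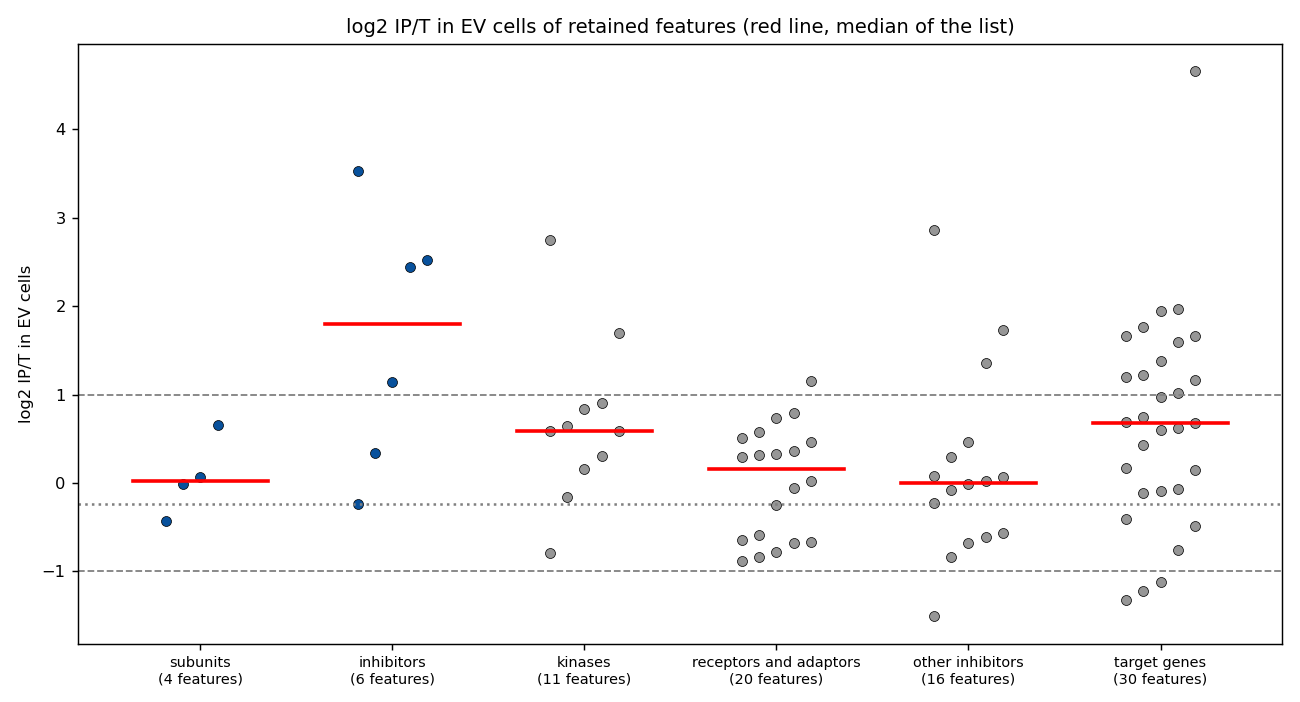
Log2 IP/T in EV cells of the retained probes of NF-kappaB subunits and inhibitors (blue) and of 4 lists of pathway genes (gray). Red lines are medians, dashed lines mark 2-fold enrichment and depletion, and the dotted line is the median of all retained probes (-0.24). Subunits lie between -0.44 and 0.65, and the inhibitors spread from -0.24 to 3.52.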

How the data were processed

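Total RNA and Ago2-bound RNA from EV and miR-155-sp cells were hybridized to 2-colour Agilent 44k arrays with dyes swapped. Samples were grouped by their labels. The spot intensity values deposited by the authors had been background-subtracted and dye-normalized with Agilent Feature Extraction (10.7.3.1 per the file headers, 10.5.1.1 in the submitters' processing notes). The log2 values deposited by the authors were quantile-normalized and filtered, and differed from those computed here by a median of 0.00056.

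Here, control and outlier spots were left out, spots of a probe averaged, and log2 processed signals quantile-normalized over 8 channels (Python 3.11.15, pandas 2.3.3, numpy 2.4.6). Probes were kept if well above background in 4 channels and within 2-fold between labellings. Labellings were averaged as log2, and IP/T is their difference. Normalization sets aside overall differences between fractions, and signals near background distort ratios. Probes were named through accessions in a RefSeq table (23958 of 41000 matched). With 1 sample per group there was no test, and the number of arrays limits the precision. The code was tested on simulated data.

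Alternatives were a common median, normexp (offset 50; limma 3.58.1, R 4.3.3) with 2 normalizations, the deposited values, stricter and absent filters, arithmetic means, single labellings and orientations, and means per gene. The genes and lists were chosen with earlier results of these data known. Named were all probes of the 10 genes, in each pathway list the 2 highest and 2 lowest in IP/T of EV cells and any probe with a 2-fold sponge change in both orientations or labellings, and the marker genes. Other genes are named because a count of their list was given.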

Additional observations from a re-analysis of the deposited data

Results flagged for a closer look

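The IP/T of OTUD7B, a deubiquitinase of the pathway, lay on opposite sides of 1 in EV and miR-155-sp cells with probe A_23_P138157. It was below 1 in both orientations in EV cells (0.821 and 0.896) and above 2 in both with the sponge (2.08 and 2.49), which is 1.41 as a log2 difference. The difference between the cell populations was not tested. The log2 signal was 6.57 (Cy3) and 6.70 (Cy5) in EV total RNA, 6.54 and 6.29 in EV Ago2-IP RNA, 6.69 and 5.97 in miR-155-sp total RNA and 7.29 and 7.75 in miR-155-sp Ago2-IP RNA. The probe was well above background in 6 of 8 channels. The part of low signal in this value was not tested.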

How the results depend on the processing

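Of 640 single values, 569 moved by no more than the SD between labellings or orientations under the alternatives. A large part of these could not move further. A single orientation always lies within that SD of the mean, and settings that change only a filter repeat the reported value. Of 238 counts 213 stayed within 1.5 times. The settings run on single probes numbered 14, the one reported and those with only a changed filter included. BCL3 and the TNFAIP3 probe A_24_P157926 were at least 2-fold enriched in EV cells under all of them, NFKBIA under 13 and the TNFAIP3 probe A_24_P166527 under 11 of 12, and in miR-155-sp cells under 14, 14, 12 and 10 of 12. The cause of the changes below was not tested. The median log2 IP/T of all probes in EV cells shifted by 0.22 with normexp, loess and Aquantile, by 0.16 with normexp and quantile normalization and by 0.20 with no filter on detection, and the 0.90 of A_24_P166527 is thus relative to a median of -0.015.

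Probes of NF-kappaB subunits and inhibitors with less total RNA in miR-155-sp cells (3) numbered 5 with IP in Cy5 alone. With single labellings they numbered 3 to 5. Those with less Ago2-IP RNA (7) numbered 4 with a common median. These counts go by the sign of the mean alone, not by both labellings as above. Among the 7 were NFKBIA (-0.0022) and NFKBIB (-0.0038), and 50.9% of all retained probes had a change below that of NFKBIA. Of receptors and adaptors, the probes enriched in EV cells (1) numbered 0 with either normexp setting and with IP in Cy5 alone, and 2 with no filter on agreement, with IP in Cy3 alone and with each single labelling. Their 2-fold changes of IP/T (0) numbered 1 with no filter on agreement and with IP in Cy3 alone, and 0 to 2 with single labellings. For kinases (0) they numbered 1 in each dye orientation alone and 0 to 2 with single labellings, and for target genes (0) 0 to 1. For other inhibitors (1) they numbered 2 with IP in Cy5 alone, 0 to 2 with single labellings, and 0 with either normexp setting, detection in all 8 channels, labellings within 1.5-fold and means per gene. No paired analysis was possible because each group holds 1 sample and its labellings are technical.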
